A study of Mus musculus with 4 samples.

Results

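The nuclear genes for the subunits of the mitochondrial respiratory chain were examined in mouse embryonic fibroblasts (MEFs) that carried either the SON lentivirus or a GFP lentivirus. Members were the rows of the deposited gene table whose gene name begins as the subunit families do (Nduf followed by a, b, c, s or v and a digit, Sdha to Sdhd, Uqcr, Cox4 to Cox8, and Atp5), without Ndufa4l2 and without names marked as pseudogenes. This gave 86 of the 39179 genes in the table: 36 for complex I, 4 for complex II, 8 for complex III, 19 for complex IV and 19 for complex V. The 86 rows carried 83 different names, because Atp5g2, Atp5l and Cox5b each stood on a second row that the GENCODE annotation of GRCm38 gives as a separate copy gene (Gm10175, Gm10221 and Gm11273). Atp5s and Atp5sl entered by their names and are not subunits of the enzyme. Ndufa4 was kept in complex I by its name, although its protein is now counted to complex IV, and Cox7a2l, kept in complex IV, is a factor that joins complexes III and IV.

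Both groups were BALB/c MEFs infected at passage 2. The SON virus (2 libraries, I and II) delivers Stella (Dppa3), Oct4 (Pou5f1) and Nanos2, which are genes of germ cells and early embryos, and the GFP virus is the control (2 libraries, I and II). Both were put under puromycin at 2 µg/ml from 72 h after infection for 4 days, and were then grown without it for 21 days in basal medium with serum. No source used here gives the promoter that drives the delivered genes. The labels do not say whether libraries I and II came from separate cultures, so p-values measure only how far these libraries differ, which may be technical. Infection, selection and the weeks in culture were alike in both groups by the labels. Changes particular to the infected cultures of a group cannot be told apart from effects of the delivered genes, since each group is 1 virus.

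Oxidative phosphorylation runs through 5 complexes of the inner mitochondrial membrane. Complex I takes electrons from NADH and complex II from succinate, both pass them through ubiquinone to complex III, cytochrome c carries them on to complex IV, which reduces oxygen, and complex V (ATP synthase) uses the proton gradient to make ATP. Most subunits are encoded in the nucleus and imported, a few of the central ones in mitochondrial DNA, and fibroblasts use the widely expressed isoforms where a subunit also has a form for muscle, lung or testis.

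Reads in genes came to 28924700 and 37097571 in the 2 control libraries, and the SON libraries were shallower, at 17365551 (I) and 14680865 (II). Values are normalized counts, that is, reads divided by the authors' size factor for the library. The delivered genes were found where the labels place them: Pou5f1 had 449 and 426 normalized counts in SON I and II and 0 reads in GFP control I and II, Dppa3 had 338 and 295 against 0 and 0.594, and Nanos2 had 364 and 402 against 0 and 0.594. Of 11 fibroblast markers all 11 were detected, with a sum of 831355 and 464821 normalized counts in GFP control I and II and of 475300 and 411295 in SON I and II. By gene they were not all at the control level. Their median log2 difference, SON minus GFP control, was -0.89, with 7 below 0 and 4 above. The authors' deposited table calls 4 of them lower and 0 higher, where it calls 2.59% and 1.48% of all genes with an adjusted p. The control libraries also differed widely from each other in these markers. The median size of the log2 difference was 1.08 between GFP control I and II and 0.30 between SON I and II. SON I stood apart in the 7 smooth muscle markers, which summed to 390003 there, against 141699 at most in the other libraries. The muscle, fat and male germ cell markers are given beside the subunits with tissue-specific isoforms.

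In SON cells the respiratory chain genes stayed close to their level in GFP control cells. Summed over all 86 rows they came to 159651 and 171820 normalized counts in GFP control I and II and to 174212 and 166133 in SON I and II, which is between 0.661% and 0.779% of all normalized counts in genes, and the groups overlapped. In bulk RNA, fewer cells of a type and less RNA per cell cannot be told apart. A filter on low reads left 80 members and 15283 genes in all for the test (limma on log2 of the value plus 1, Benjamini-Hochberg adjusted over the 15283 genes). The median log2 difference, SON minus GFP control, was 0.01 over the 80 members, with 42 above 0 and 38 below, and -0.01 over all genes tested. The middle 50% of members lay between -0.12 and 0.13, and that of all genes between -0.26 and 0.23. The 22 members taken as core subunits of their complexes had a median of 0.05, with 16 above 0 and 6 below. This choice includes Cox4i1, Cox5a and Cox5b for complex IV, whose central subunits are encoded in mitochondrial DNA. It lacks Cyc1, which the name rule misses. The other 58 tested members had a median of -0.04, with 26 above 0 and 32 below. Whether these sets differ was not tested.

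None of the 80 members passed an adjusted p of 0.05 in limma, and 8 of the 15283 genes did (0.0523%; 0.0327% as higher and 0.0196% as lower). At an unadjusted p under 0.05 there were 3 members higher in SON (Cox6b2, Uqcrc1 and Ndufb7) and 3 lower (Cox4i2, Ndufv3 and Ndufa5), that is 6 of 80 where the share over all genes was 12.6% (5.99% higher and 6.57% lower). The authors' deposited table calls 2 of the 80 members, Cox6b2 as higher and Cox4i2 as lower, where it calls 4.07% of the 14637 genes with an adjusted p (1.48% higher and 2.59% lower). DESeq2 on the recovered reads called the same 2 members, and edgeR called 0 with either scaling. The libraries of the groups did not overlap for 22 members that were higher in SON and 19 that were lower, or 51.2% of the members, beside 45.9% of all genes tested (22.2% higher and 23.7% lower).

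**Figure D1:**
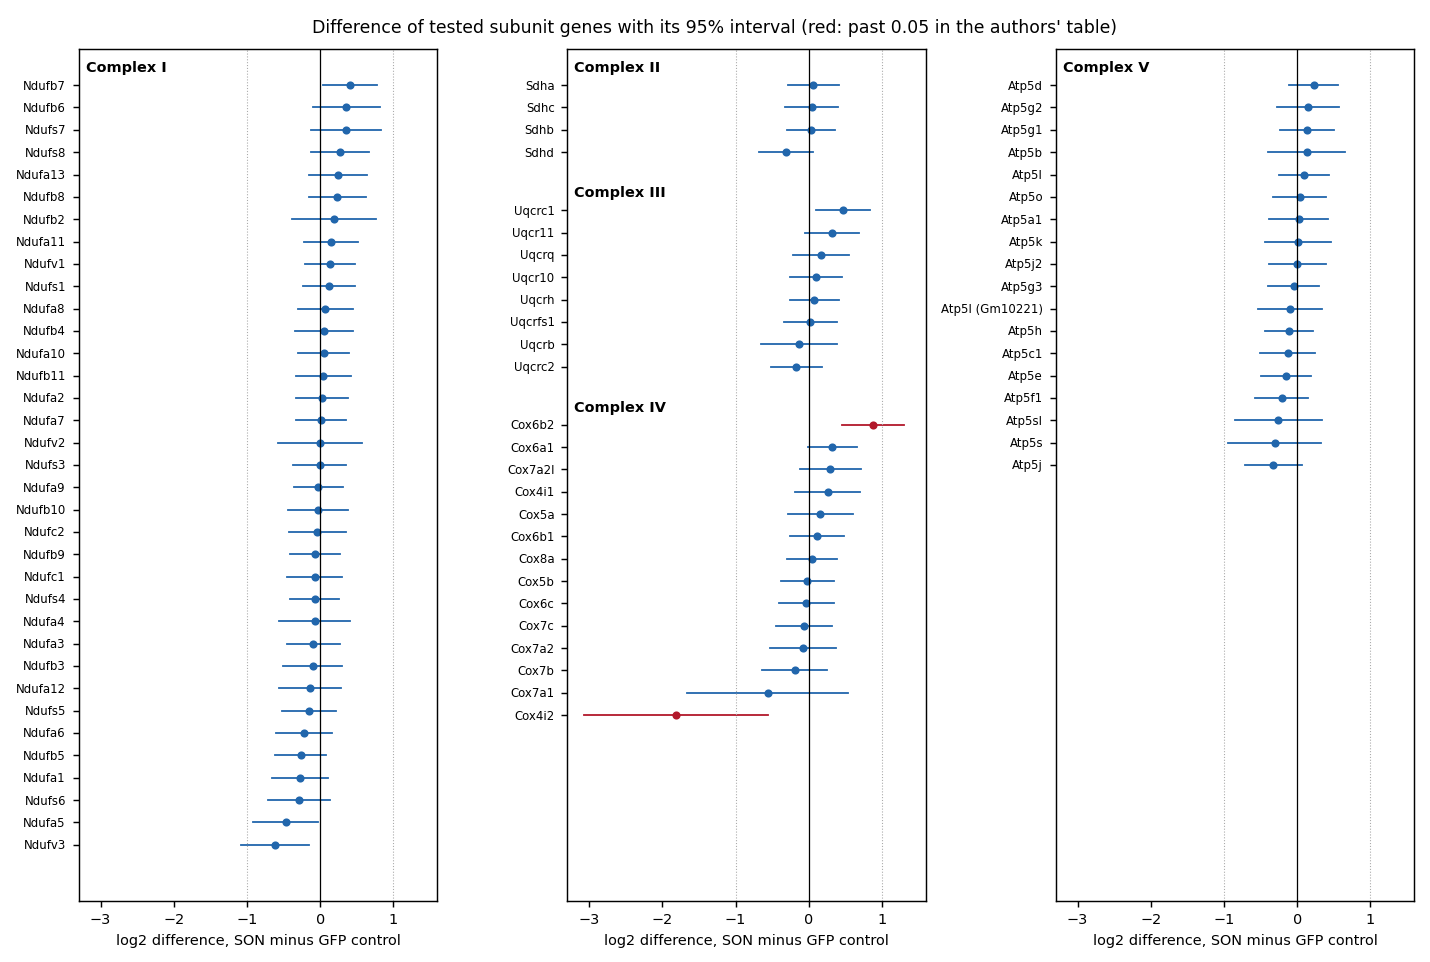
Each point is the log2 difference (SON minus GFP control, x axis) of 1 tested gene, with its 95% interval from limma as a line, sorted within complexes I to V; dotted lines mark a 2-fold change, and red marks the 2 genes past 0.05 in the authors' deposited table. Nearly all intervals cross 0 and lie between the dotted lines, and Cox6b2 and Cox4i2 stand at the 2 ends of complex IV.

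The small differences were also measured with some precision. The 95% interval of the log2 difference lay inside a 2-fold change in either direction for 76 of the 80 members (95%), compared with 55.7% of all genes tested. This was not particular to the respiratory chain. The interval also lay inside a 2-fold change for all 13 tested enzymes of the tricarboxylic acid cycle and all 18 other mitochondrial proteins listed below. For the assembly factors this held for 41 of 47. The standard error had a median of 0.15 over the members and of 0.24 over all genes. A difference of at most 0.2 was found for 67.5% of members and 43.1% of all genes, and one within 0.5 for 76 of 80 members beside 75.5% of all genes. The median size of the difference between the group means was 0.13. Between single libraries it was 0.14 for SON I and II and 0.08 for GFP control I and II. A difference between means of 2 libraries varies less than one between single libraries, so these sizes do not compare directly. Whether the members differ in the size or precision of their differences from other genes with a like number of reads was not tested.

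**Figure D2:**
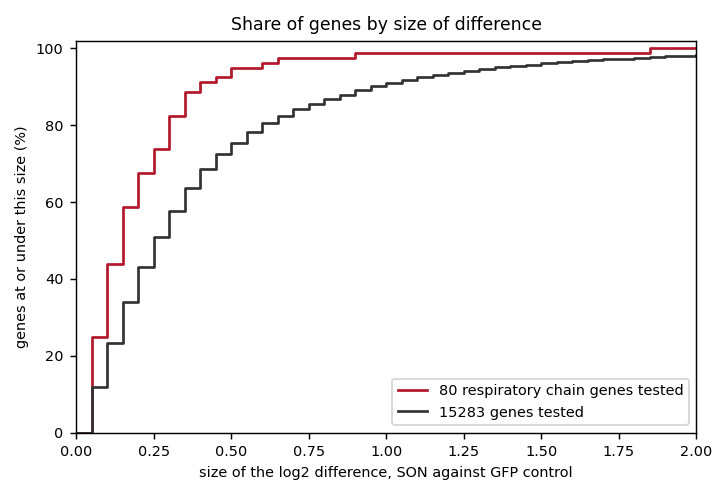
The x axis is the size of the log2 difference between SON and GFP control and the y axis the percentage of genes at or under that size, for the 80 respiratory chain genes tested (red) and all 15283 genes tested (black). At 0.2 the lines stand at 67.5% and 43.1%.

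Complex I, the entry point for electrons from NADH, had a median log2 difference of -0.00 over its 36 members. Its summed level was 44420 and 46068 normalized counts in GFP control I and II and 45200 and 44774 in SON I and II, a ratio of 0.994. Of its members 10 had SON libraries above both GFP control libraries and 10 had them below, which is 55.6% beside 45.9% over all genes tested (22.2% higher and 23.7% lower). By gene family, the ratio of the summed levels of SON to control was 0.998 for the 11 Ndufs and Ndufv genes, most of which sit in the matrix arm, 0.982 for the 13 Ndufa genes, 1.02 for the 10 Ndufb genes of the membrane arm and 0.965 for the 2 Ndufc genes. Among the Ndufs and Ndufv genes, the 7 core subunits of the matrix arm had a ratio of 1.07. Their log2 differences ran from -0.01 to 0.35, with 5 above 0 and 2 below. Without overlap, 4 of these 7 were higher in SON and 0 lower.

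The lowest value in complex I was that of Ndufv3 (ENSMUSG00000024038, chr17:31520115-31531331, plus strand, GRCm38), an accessory subunit beside the flavin site. It had 1665 and 1682 normalized counts in GFP control I and II and 946 and 1252 in SON I and II. The groups did not overlap, and SON I was the lowest of the 4. Its log2 difference was -0.62 ± 0.18 (SE, n = 2 per group) with an adjusted p of 0.314 in limma, and its 95% interval ran from -1.08 to -0.16. Ndufa5, an accessory subunit of the matrix arm, had 780 and 728 against 597 and 495, a difference of -0.47 (adjusted p = 0.378). At the other end stood a pair of accessory subunits of the membrane arm. Ndufb7 had 796 and 752 normalized counts in GFP control I and II and 997 and 1055 in SON I and II, a difference of 0.41 ± 0.14 (adjusted p = 0.369). Ndufb6 had 296.5 and 322 against 406 and 386, a difference of 0.36 (adjusted p = 0.490). In all 4 of these genes both SON libraries lay on the same side of both control libraries, and Ndufb6 shares 39% of its exon bases with Smim27 on the other strand, whose reads this unstranded kit cannot separate from it (Smim27 itself had a mean of 14.4 normalized counts). Per kb of exon, the highest level in complex I was that of Ndufa1, a small membrane subunit encoded on chromosome X, at 2490 normalized counts per kb as the mean of the 4 libraries, and the median over the complex was 708.

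Complex II is the succinate dehydrogenase of the citric acid cycle and the only complex encoded wholly in the nucleus. Its summed level was 11637 and 12260 normalized counts in GFP control I and II and 11976 and 11569 in SON I and II. Sdha, the flavoprotein that oxidizes succinate, had 4412 and 4710 in the control and 4928 and 4614 in SON, and Sdhb, the iron-sulphur subunit, had 1848 and 1830 against 1906 and 1855. Their log2 differences were 0.06 (adjusted p = 0.888) and 0.03 (adjusted p = 0.948). Of the membrane anchors, Sdhc had 2746 and 3018 against 2824 and 3097, which overlap, and Sdhd had 2631 and 2702 against 2318 and 2004, which do not. The log2 difference of Sdhd was -0.31 ± 0.14 (adjusted p = 0.468) and that of Sdhc 0.04 (adjusted p = 0.942); whether the 2 differ was not tested. Sdhd also had the highest level of the complex per kb of exon, at 1961 normalized counts per kb.

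Complex III, the cytochrome bc1 complex, had a summed level of 14414 and 14998 normalized counts in GFP control I and II and of 16042 and 15882 in SON I and II. Both SON libraries were above both control libraries on this scale, with a ratio of 1.09. As a share of all normalized counts in genes the groups overlapped, with 0.0597% and 0.0680% in the control and 0.0677% and 0.0736% in SON. A single gene made up most of this gap: Uqcrc1 added 1085 of the 1256 normalized counts between the group means, and without it the ratio was 1.01. Uqcrc1 (ENSMUSG00000025651, chr9:108936633-108949623, plus strand, GRCm38) encodes a core protein on the matrix side. It had 2719 and 2949 normalized counts in GFP control I and II and 3684 and 4153 in SON I and II, a log2 difference of 0.47 ± 0.14 (SE, n = 2 per group, adjusted p = 0.330) with a 95% interval from 0.10 to 0.83. Its partner in the core, Uqcrc2, lay on the other side, with 3129 and 3285 in the control and 2992 and 2715 in SON (log2 difference -0.17, adjusted p = 0.669). Uqcrfs1, the Rieske iron-sulphur protein, overlapped between the groups, with 1606 and 1775 against 1788 and 1647. Among the small subunits Uqcr11 had 822 and 801 against 975 and 1047 (difference 0.32, adjusted p = 0.452), and Uqcrb had 886 and 816 against 911 and 662.5 (difference -0.13, adjusted p = 0.841). Uqcrh, the hinge protein that binds cytochrome c1, had the highest level per kb of exon, at 2707 normalized counts per kb. Cyc1, the gene for cytochrome c1, is outside the name rule and not in the sum of this complex.

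Complex IV, cytochrome c oxidase, is the complex whose subunits most often come in isoforms, and its members spread the most. Its summed level was 26340 and 29419 normalized counts in GFP control I and II and 30599 and 30222 in SON I and II, a ratio of 1.09 with both SON libraries above both control libraries, and a ratio of 1.03 without GFP control I. As a share of all normalized counts in genes the groups overlapped here too, with 0.109% and 0.133% in the control and 0.129% and 0.140% in SON. The largest parts of the gap of 2531 were those of Cox4i1 (916), Cox7a2l (764), Cox6a1 (597) and Cox6b2 (426). With 2 libraries against 2 the smallest two-sided exact permutation p for such a sum is 0.333, so no sum could pass that test, and no other test was run on the sums. The median log2 difference of its 14 tested members was 0.01, with 7 above 0 and 7 below.

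**Figure D3:**
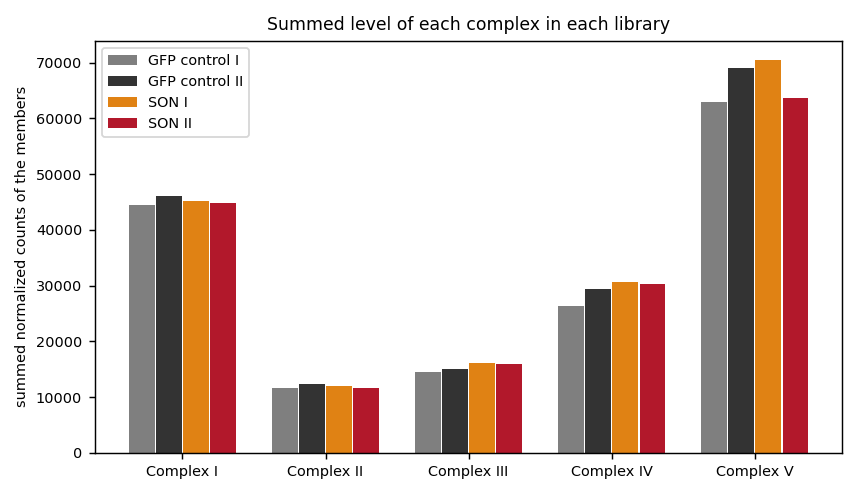
Bars give the summed normalized counts (y axis) of all members of complexes I to V (x axis) in each of the 4 libraries, from 0, with GFP control I and II in greys and SON I and II in orange and red. In complexes III and IV both SON bars are above both control bars, and in complexes I, II and V the groups overlap; as a share of all normalized counts in genes, complexes III and IV overlap as well.

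Cox6b2 (ENSMUSG00000051811, chr7:4751792-4753094, minus strand, GRCm38) had the highest difference of all members. It encodes the form of subunit 6b that is otherwise typical of testis, in place of the widely expressed Cox6b1. Cox6b2 had 464 and 552 normalized counts in GFP control I and II and 923 and 945 in SON I and II. Both SON libraries were well above both control libraries, and the libraries within each group were close. The log2 difference was 0.88 ± 0.17 (SE, n = 2 per group) with a 95% interval from 0.46 to 1.30; limma gave an adjusted p of 0.234, and the authors' deposited table gives a log2 fold change of 0.85 with an adjusted p of 0.018. The common form Cox6b1 had 4056 and 4615 in the control and 4816 and 4561 in SON, which overlap (log2 difference 0.12, adjusted p = 0.795). Per kb of exon, Cox6b2 was 6.82% and 7.10% of the 2 forms together in GFP control I and II and 10.9% and 11.7% in SON I and II, so Cox6b1 remained the main form in every library.

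Of 6 male germ cell markers, Pgk2 was listed at 0 in every library, Prm1 and Ldhc had at most 2.94 and 1.47 normalized counts, and the 6 summed to 63.5 and 55.9 in GFP control I and II and to 23.2 and 32.3 in SON I and II, below the control, while Cox6b2 was above it. Most of that sum was Ddx4, a germ cell helicase, with 45.1 and 44.0 in the control and 13.6 and 11.8 in SON. The testis forms of the other complex IV subunits were also near 0: Cox7b2 had 0 and 0.594 in the control and 0 in both SON libraries, and Cox8c had 0 in 3 libraries and 1.47, a single read, in SON II. Of the genes next to Cox6b2, Fam71e2, 132 bases away on the same strand, had at most 3.34 normalized counts. Kmt5c, on the other strand, had 296.5 and 324 in the control and 256 and 291 in SON. A relation of Cox6b2 to its neighbours or to germ cell genes was not tested.

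Cox4i2 (ENSMUSG00000009876, chr2:152754173-152765037, plus strand, GRCm38) had the lowest difference of all members. It encodes the second form of subunit 4, known from lung and from cells at low oxygen. Cox4i2 had 99.4 and 168 normalized counts in GFP control I and II and 24.5 and 52.9 in SON I and II. The groups did not overlap, and both groups spread widely, from 119 and 283 reads in the control to 18 and 36 reads in SON. The log2 difference was -1.81 ± 0.49 (SE, n = 2 per group) with a 95% interval from -3.07 to -0.55; limma gave an adjusted p of 0.283, and the authors' deposited table a log2 fold change of -1.53 with an adjusted p of 0.030. Cox4i1, the common form, had 4284 and 5140 in the control and 5121 and 6134 in SON, which overlap (log2 difference 0.26, adjusted p = 0.609). Per kb of exon, Cox4i2 was 4.36% and 6.05% of the 2 forms in GFP control I and II and 0.934% and 1.67% in SON I and II.

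Ndufa4l2, which the name rule leaves out, is related to Ndufa4 and, like Cox4i2, is known as a gene that low oxygen induces. It had 1007 and 534 normalized counts in GFP control I and II and 36.8 and 91.1 in SON I and II. Its log2 difference was -3.64 (adjusted p = 0.230 in limma), and the authors' deposited table gives -3.15 with an adjusted p of 3.1e-10. Ndufa4 itself had 2750 and 3198 against 3229 and 2446, which overlap. Hif1a, the oxygen-regulated subunit of the hypoxia-inducible factor, had 16635 and 15446 in the control and 9407 and 9887 in SON, a log2 difference of -0.73 (adjusted p = 0.257 in limma, 0.021 in the authors' deposited table). Cox4i2, Ndufa4l2 and Hif1a were each lower in both SON libraries than in both control libraries, as were 23.7% of all genes tested. A relation between these 3 genes was not tested. The smooth muscle markers, whose sum was highest in SON I, and the 8 fat markers, which summed to 16105 and 5090 in GFP control I and II and to 1406 and 1321 in SON I and II, also differed between the libraries; their part in the values of Cox4i2 and Ndufa4l2 was not tested.

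The muscle forms of complex IV were low throughout. Cox7a1, the heart and skeletal muscle form of subunit 7a, had 34.2 and 31.5 normalized counts in GFP control I and II and 16.4 and 29.4 in SON I and II, which rest on 12 and 20 reads in SON. Its log2 difference was -0.56 ± 0.43 (adjusted p = 0.650), and its interval from -1.66 to 0.54 leaves both directions possible. Cox6a2, the muscle form of subunit 6a, had 11.7 and 4.16 in the control and 0 and 1.47 in SON and did not pass the filter, nor did Cox8b, with 0.835 and 4.16 in the control and 0 in both SON libraries. A count of 0 allows up to 4.09 normalized counts in SON I and 4.41 in SON II (3 reads), so no difference in Cox8b could be detected at this depth. Of the 13 skeletal or heart muscle markers Myod1 was listed at 0 in every library, Ckm and Mb had at most 0.594 and 2.94 normalized counts, and the list's sum, nearly all of it Acta1, was 584 and 2011 in GFP control I and II and 2784 and 1321 in SON I and II.

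The common forms of subunits 6a and 8 held nearly all of the signal. Cox6a1 had 2318 and 2466 normalized counts in GFP control I and II and 3011 and 2967 in SON I and II, a log2 difference of 0.32 ± 0.13 (adjusted p = 0.408) with no overlap, and took between 99.5% and 100% of subunit 6a per kb of exon in each library. Cox8a, at 2321 and 2545 against 2473 and 2547, took 99.7% or more of subunit 8. Cox7b had 2425 and 2674 against 2512 and 1973, with SON II the lowest. Of subunit 7a, Cox7a2 had 2396 and 2706 against 2715 and 2145, and its relative Cox7a2l had 3100 and 3804 against 4063 and 4369 (log2 difference 0.29, adjusted p = 0.525). Cox7a2l therefore took 44.6% and 46.8% of the 3 genes' signal per kb of exon in GFP control I and II, and 48.6% and 56.0% in SON I and II. Cox6b1 had the highest level per kb of exon of all 80 tested members, at 6373 normalized counts per kb, and complex IV the highest median of the complexes, at 1510. These levels divide by all annotated exon bases of a gene, so a gene with long rare transcripts has a low value: Ndufb2, at 26.3, and Atp5l, at 218, are annotated with 5628 and 6443 exon bases.

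Complex V, ATP synthase, had the highest summed level, with 62841 and 69076 normalized counts in GFP control I and II and 70395 and 63686 in SON I and II, which overlap. Its rotor and catalytic head were led by Atp5b, the catalytic beta subunit, with 20501 and 24423 against 26517 and 22501, and by Atp5a1, the alpha subunit, with 12473 and 13486 against 13266 and 13027. Atp5d, the delta subunit of the central stalk, had 2115 and 2146 against 2394 and 2578, a log2 difference of 0.22 ± 0.13 (adjusted p = 0.558) with no overlap. The peripheral stalk, which holds the head still, lay lower: its 4 genes (Atp5f1, Atp5h, Atp5j and Atp5o) summed to 10492 and 11093 in GFP control I and II and to 10218 and 9246 in SON I and II, a ratio of 0.902. As a share of all normalized counts in genes these came to 0.0434% and 0.0503% in the control and 0.0432% and 0.0429% in SON. Atp5j had 2586 and 2699 against 2304 and 1930 (log2 difference -0.32 ± 0.15, adjusted p = 0.466), Atp5f1 and Atp5h also lay below the control without overlap, at -0.21 (adjusted p = 0.601) and -0.12 (adjusted p = 0.765), and Atp5o overlapped. Of all genes tested, 23.7% lay lower in SON without overlap and 22.2% higher. Atp5j shares exon bases with Gabpa on the other strand (12.7% of its exon length), a gene whose log2 difference was -0.00. The membrane subunits Atp5j2, Atp5k and Atp5l differed by 0.00 to 0.09.

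The ring that turns with the proton flow is built from subunit c, which 3 genes encode with different import sequences and the same mature protein. Atp5g3 had 3840 and 4161 normalized counts in GFP control I and II and 3926 and 3812 in SON I and II, Atp5g1 had 1044 and 1088 against 1226 and 1113, and Atp5g2 had 708 and 673 against 836 and 702. Per kb of exon Atp5g3 took 73.5% and 75.4% of the 3 in the control and 70.6% and 73.0% in SON. On that scale Atp5g2 stood above Atp5g1 in every library, while in normalized counts Atp5g1 stood above Atp5g2. Atp5g1 is annotated with 4912 exon bases and Atp5g2 with 1675, so the order of these genes depends on the scale. The shares also leave out the reads on pseudogene copies. These came to 90.4% of the level of Atp5g2 and 44.4% of that of Atp5g1, while Atp5g3 had 0 copies. The share of Atp5g3 may therefore be too high. The lowest value in the complex V list after Atp5j was that of Atp5s, a gene for a coupling-factor protein, with 157 and 182.5 against 123 and 151 (log2 difference -0.31 ± 0.25, adjusted p = 0.666).

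Subunit genes have many processed pseudogenes, which are copies of the mRNA inserted elsewhere in the genome, and reads can fall on either. By sequence comparison of the GENCODE transcripts, with at least 90% identity over at least 100 bases, 38 of the members had 1 or more copies, 109 copies in all, of which 62 were in the table and 23 of those had no reads. For 13 copies the mean was at least 100 normalized counts, from 7.41% to 89.9% of the level of the subunit gene. Gm10231 had 656 normalized counts as the mean of 4 libraries beside 730 for Atp5g2, Gm12338 had 723 beside 1184 for Cox7c, and Gm15920 had 384 beside 572 for Ndufa12. Of these 13, 9 matched the subunit at 99% identity or more, so the reads of Atp5g2, Cox7c, Ndufa12, Atp5g1, Atp5l, Ndufb4, Atp5h, Ndufs5 and Cox7a2l may be divided between the gene and its copy, and their levels are uncertain. The differences of the 13 copies ran from -0.34 to 0.47 with 2 above 0 and 11 below, and none had an adjusted p under 0.05. Gm6969 had the highest of these, at 0.47, with 402 and 493 in GFP control I and II and 593 and 643 in SON I and II, on the same side as its gene Cox7a2l. The 41 tested members that had no copy and were not copies themselves had a median log2 difference of 0.02, beside 0.01 for all 80, and Cox6b2, Cox4i2, Ndufv3 and Uqcrc1 are among them.

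**Figure D4:**
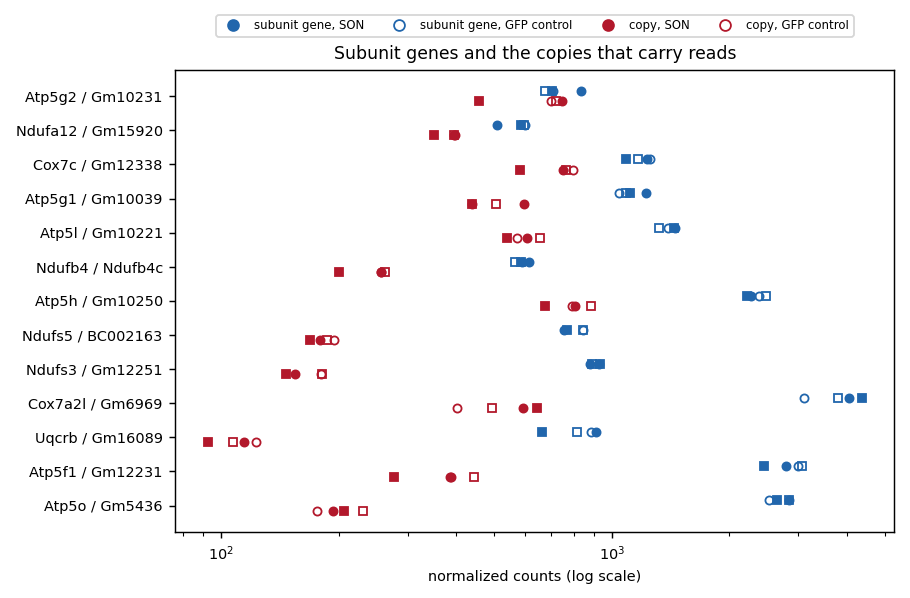
For the 13 copies with a mean of at least 100 normalized counts, the x axis (log scale) gives the normalized counts of the subunit gene (blue) and of its copy (red) in each library, named on the y axis as gene / copy; open symbols are GFP control, filled ones SON, circles libraries I and squares libraries II. Gm10231 overlaps with Atp5g2, while Gm5436 and Gm12231 lie far below their genes.

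Nuclear respiratory genes are known for promoters that bind NRF1, ETS factors such as GABPA, and YY1. Promoter windows from RefSeq (GRCm38.p6, 250 bases before to 50 bases after the start) matched 69 of the 83 names, with 75 windows. They were searched on both strands for the exact letters CGCATGCG (NRF1), CCGGAAG (ETS) and AAGATGG (YY1), and no 2 matches overlapped. The NRF1 letters stood in 9 of the 75 windows (12%) and in 1.87% of all 32851 windows, the ETS letters in 16 (21.3%) and 8.86%, and the YY1 letters in 13 (17.3%) and 6.34%. At least 1 of the 3 was in 42.7% of the members' windows and in 15.95% of all. The 9 genes with the NRF1 letters (Uqcrc1, Cox6a1, Uqcr11, Atp5g2, Ndufa11, Atp5l, Ndufa8, Atp5k and Atp5j) had log2 differences from -0.32 to 0.47 with a median of 0.14, the 16 with the ETS letters had a median of 0.06, the 12 with the YY1 letters one of -0.07, and the 36 with none of the 3 a median of -0.01. Differences between these medians were not tested.

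The windows of 5 genes are shown, read 5′ to 3′ on the strand of the gene, with the matches in capitals: the isoform pair Cox6b2 (chr7:4753045-4753344, minus strand) and Cox6b1 (chr7:30626065-30626364, minus strand), whose levels are given above, Uqcrc1 (chr9:108936398-108936697, plus strand) and Cox6a1 (chr5:115348909-115349208, minus strand), which had the highest differences among the genes with the NRF1 letters, and Ndufv3 (chr17:31519865-31520164, plus strand), the lowest of complex I.
Cox6b2: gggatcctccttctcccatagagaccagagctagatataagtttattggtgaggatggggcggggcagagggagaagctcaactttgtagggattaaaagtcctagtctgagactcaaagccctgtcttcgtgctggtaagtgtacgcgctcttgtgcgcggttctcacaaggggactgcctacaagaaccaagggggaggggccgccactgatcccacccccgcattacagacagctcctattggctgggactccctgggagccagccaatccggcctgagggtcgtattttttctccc
Cox6b1: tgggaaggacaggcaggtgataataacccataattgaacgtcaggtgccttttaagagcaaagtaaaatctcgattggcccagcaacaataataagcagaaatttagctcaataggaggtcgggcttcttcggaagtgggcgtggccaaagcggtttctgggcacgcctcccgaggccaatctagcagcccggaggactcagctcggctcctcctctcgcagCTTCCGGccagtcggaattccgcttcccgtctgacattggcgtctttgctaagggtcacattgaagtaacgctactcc
Uqcrc1: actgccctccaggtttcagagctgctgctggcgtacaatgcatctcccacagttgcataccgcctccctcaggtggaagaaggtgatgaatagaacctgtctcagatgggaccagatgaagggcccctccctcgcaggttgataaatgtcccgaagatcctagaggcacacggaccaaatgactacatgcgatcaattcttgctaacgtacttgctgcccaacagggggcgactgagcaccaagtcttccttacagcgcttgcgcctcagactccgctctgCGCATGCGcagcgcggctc
Cox6a1: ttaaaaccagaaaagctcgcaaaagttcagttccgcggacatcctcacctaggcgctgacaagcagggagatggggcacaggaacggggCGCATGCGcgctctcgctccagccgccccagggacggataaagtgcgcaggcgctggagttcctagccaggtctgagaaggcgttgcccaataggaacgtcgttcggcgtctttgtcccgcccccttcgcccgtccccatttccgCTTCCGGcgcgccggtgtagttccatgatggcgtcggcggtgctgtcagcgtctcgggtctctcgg
Ndufv3: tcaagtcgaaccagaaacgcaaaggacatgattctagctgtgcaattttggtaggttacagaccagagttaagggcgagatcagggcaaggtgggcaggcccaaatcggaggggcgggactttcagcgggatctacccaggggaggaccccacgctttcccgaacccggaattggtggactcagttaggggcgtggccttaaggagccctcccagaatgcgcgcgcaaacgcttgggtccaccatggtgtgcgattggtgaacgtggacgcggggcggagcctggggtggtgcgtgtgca
Cox6b1 holds the ETS letters, Uqcrc1 the NRF1 letters close to its start and Cox6a1 both of them, while Cox6b2 and Ndufv3 hold none of the 3 in this window. A match is a description of the letters and does not show that a factor binds there.

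The subunits encoded in mitochondrial DNA could not be compared. All 13 of them, and all 37 genes of the mitochondrial chromosome in the table, are listed at 0 in every library. Of 14 partners of the chain outside the name rule (other subunits, electron carriers and enzymes that feed ubiquinone) 13 were tested. Their median log2 difference was -0.06, with 5 above 0 and 8 below, and 12 lay within 0.5. Without overlap, 1 was higher in SON and 5 lower, beside 22.2% and 23.7% of all genes tested. None was called by limma (at an unadjusted p under 0.05, 0 higher and 1 lower, beside 5.99% and 6.57% of all genes). The authors' deposited table calls 1 of them, Ndufa4l2, as lower, where it calls 2.59% of genes with an adjusted p as lower. Cycs, the somatic cytochrome c, had 1695 and 1988 in GFP control I and II and 2278 and 1597 in SON I and II, and Cyct, its testis form, was listed at 0 in every library.

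Assembly factors, which build the complexes and are not part of them, were also called in no case: 50 were found in the table (Coa1 was not found by name) and 47 tested, with 22 above 0 and 25 below, a median of -0.02 and none called by limma (at an unadjusted p under 0.05, 0 higher and 1 lower) or in the authors' deposited table. The largest difference was that of Higd1a, a small inner membrane protein that acts on complexes III and IV and is known as induced by low oxygen, with 1823 and 1789 in the control and 1099 and 1306 in SON (log2 difference -0.59, adjusted p = 0.274). Of 16 tested regulators of these genes 9 were above 0 and 7 below, with a median of 0.03. None was called by limma (1 higher, Esrra, and 1 lower, Hif1a, at an unadjusted p under 0.05). The authors' deposited table calls Hif1a. Over all genes tested, limma gave 5.99% higher and 6.57% lower at that unadjusted p. The authors' table calls 1.48% of genes with an adjusted p as higher and 2.59% as lower. Ppargc1a, a coactivator of mitochondrial biogenesis, was low, with 61.0 and 30.9 against 19.1 and 22.0 (log2 difference -1.05, adjusted p = 0.434). Polrmt, the mitochondrial RNA polymerase, had 336 and 371 against 435 and 687.5 (0.63, adjusted p = 0.423), and Esrra, a nuclear receptor that drives respiratory genes, had 361 and 392 against 491 and 580 (0.50, adjusted p = 0.374). Tfam, which packages mitochondrial DNA, had 839 and 804 against 714.5 and 635 (-0.29, adjusted p = 0.520), Nrf1 had 553 and 593 against 518 and 479 (-0.20, adjusted p = 0.668), and Gabpa overlapped between the groups.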

How the data were processed

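RNA of 4 libraries was prepared with the TruSeq mRNA kit v2, per the labels, a kit whose reads carry no strand. The genome was GRCm38 (mm10), and the tools were STAR 2.4.0j, TopHat2 2.0.11, featureCounts, Subread, HTSeq 0.5.3p3, CASAVA 1.8.1 and DESeq2, per the submitters' processing notes, which are used here without roles for each. The authors deposited a signal per gene and library that is a read count divided by 1 size factor per library: every value was a whole number of reads within 0.01, for 39179 genes, of which 13132 had no reads. The authors' DESeq2 results stand in further columns, per the file headers: log2 fold changes, p-values, adjusted p-values and a score (the Wald statistic) that was not used. The deposited table of repeats was not used here.

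Members were found by name. They and the gene lists (partners of the chain, assembly factors, regulators, tricarboxylic acid cycle, other mitochondrial proteins, 8 sets of cell type markers) were chosen with earlier results of these data known. Members named in the text are those past 0.05 in either table, the 2 highest and 2 lowest differences and the highest level per kb of each complex, those below the filter, core subunits (some given only in counts and ranges), isoform families and the 5 largest differences without overlap. Others were named after their values were seen. The values of 1 member are not reported here by name; it stays in the counts, medians and sums. Low genes were removed by the filterByExpr function (edgeR 4.0.16, by group), and the rest were tested with limma 3.58.1 in R 4.3.3 (two-sided, trend on the mean, pseudocount 1, log2 scale, which understates the change of low genes), with Benjamini-Hochberg adjustment over 15283 genes. The fit was tested on simulated data. Alternatives were pseudocounts 0.1 and 10, no filter, 1 CPM in 2 libraries, TMM and upper-quartile factors, edgeR on recovered reads, DESeq2 1.42.0, limma voom, a replicate block and each library left out. Exon lengths, coordinates and transcripts came from GENCODE M21 (GRCm38), in which 37607 identifiers and all 86 members were found; copies were found with BLAST 2.17.0. A floor of 3 reads was 2.51, 1.78, 4.09 and 4.41 normalized counts in GFP control I and II and SON I and II, and covers counting error only.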

Additional observations from a re-analysis of the deposited data

How the results depend on the processing

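The median log2 difference of the members stayed between -0.02 and 0.04 over 15 alternatives and 2 more chosen after seeing the data (reads of pseudogene copies added to their member, and copy rows, Atp5s and Atp5sl left out). The number of members called was 0 in limma and 0 under all alternatives except DESeq2, which called 2, Cox6b2 (log2 difference 0.88, adjusted p = 0.019) and Cox4i2 (-1.80, adjusted p = 0.033). Over all genes the count was 8 in limma, 591 with DESeq2, 4 with limma voom and 11 with the replicate block, and from 0 to 37 with 1 library left out (0 without GFP control I, SON I or SON II, and 37 without GFP control II). The replicate block called 0 members; the numerals I and II are not said to pair libraries, and deviations of same-numbered libraries correlated at 0.218 across genes. The median of complex III was 0.087 and ran from 0.042 without GFP control I to 0.102 without SON II. With 1 library left out, Sdhc ran from -0.029 (without GFP control I; also -0.028 without SON II) to 0.107, and Uqcrb from -0.360 to 0.099, its value without SON II. The other 18 members followed under all alternatives kept their direction. The SON libraries had fewer reads than the control libraries, and Cox4i2, Cox7a1 and the isoforms below the filter rest on few reads there; 2 libraries per group limit every test.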

Other observations

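The enzymes of the tricarboxylic acid cycle, which supplies NADH and succinate to the chain, lay slightly more often above than below the control. Of 13 tested, 10 had a log2 difference above 0 and 3 below, with a median of 0.14, and none was called by limma or in the authors' deposited table, with 0 at an unadjusted p under 0.05 in limma. Their summed level was 36148 and 39712 normalized counts in GFP control I and II and 42933 and 40735 in SON I and II, with both SON libraries above both control libraries. The largest difference was that of Dld, the dihydrolipoamide dehydrogenase shared by several dehydrogenases, with 3071 and 3042 against 2520 and 2494 (log2 difference -0.29, adjusted p = 0.449), while Dlst and Mdh2 stood at 0.28 each (adjusted p = 0.520 and 0.553). Mdh2 had 5060 and 6264 in the control and 6687 and 7036 in SON.

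Of 18 other mitochondrial proteins (import, carriers, chaperones, inner membrane shape) 12 were above 0 and 6 below, with a median of 0.05. None was called by limma or in the authors' deposited table. At an unadjusted p under 0.05 in limma, 1 of the 18 was higher and 0 lower, beside 5.99% and 6.57% of all genes tested. The largest difference was that of Tomm40, the channel of the outer membrane, with 1156 and 1292 in GFP control I and II and 1560 and 1623 in SON I and II (log2 difference 0.38, adjusted p = 0.380).

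Of the remaining marker lists, the 12 macrophage markers summed to 1429 and 1510 normalized counts in the control and 469 and 1306 in SON, the 5 endothelial ones to 119 and 174 against 249.5 and 226, and the 6 epithelial ones to 183 and 378 against 660 and 968, in the order GFP control I, II, SON I, II.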
